A study of Mus musculus with 4 samples.

Results

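The response of the main population of neonatal ventricular cardiomyocytes to myocardial infarction was described in hearts whose cardiomyocytes carried the Nrf1 deletion. The nuclei were those with the deposited population label CM1 in the library titled MI-KO (called KO-MI here, 1308 nuclei) and in the library titled Sham-KO (KO-Sham, 2619 nuclei), 3927 of the 8585 nuclei of the series. The UMIs of each gene, which are counts of captured RNA molecules, were summed over the CM1 nuclei of a library and scaled to 1000000 UMIs of that sum (CPM). The log2 ratio of KO-MI over KO-Sham is positive where a gene was higher after MI. Each side was 1 library, so no ratio has a replicate check and no p-value is given, and every 95% interval, written in parentheses, covers counting error only.

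Both knockout libraries came from mice with a loxP-flanked Nrf1 gene (Nrf1 fl/fl) and Cre under the αMHC promoter, which deletes the gene in cardiomyocytes and leaves it in the other cells of the heart. MI, by ligation of the left anterior descending artery, or Sham surgery was done on pups at day 3 after birth. The heart below the tied artery was taken 1 day later per the study's methods, and 4 to 6 hearts of 1 genotype were pooled per library. The control libraries, WT-MI (1415 CM1 nuclei) and WT-Sham (1098), came from Nrf1 fl/fl mice without Cre, and the labels call their genotype Wildtype. The strain field of the labels reads C57BL/6, C57BL/7, C57BL/8 and C57BL/9 over the 4 samples, while the protocol gives a C57BL/6 background.

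Nrf1, encoded by Nfe2l1, is a transcription factor of the endoplasmic reticulum membrane that is released under stress and is known for driving proteasome and antioxidant genes. It is not the factor whose gene symbol is Nrf1, nuclear respiratory factor 1. After ischemia, ventricular cardiomyocytes are known to switch on natriuretic peptides and stretch-responsive genes, and to lower genes of mitochondrial energy production. CM1 is the largest cardiomyocyte class of this series and merges the classes CM1 and CM3 of an earlier reference. The CM5 class, by contrast, is defined by injury genes, so part of the injured nuclei had been taken out of CM1 before any ratio was computed. CM5 nuclei made up 19.2% of KO-MI and 7.03% of KO-Sham.

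All 10 ventricular markers were measured in CM1, and they summed to 39934 CPM in KO-MI and 47630 CPM in KO-Sham. Ttn, the giant spring of the sarcomere, reached 11542 CPM after MI and 9203 CPM after Sham surgery. The targeted gene Nfe2l1, at chr11:96817414-96829968 (GRCm38, GENCODE M21), had 57.7 CPM (307 UMIs) in the library labelled KO-MI and 53.3 CPM (391 UMIs) in the library labelled KO-Sham, with 44.1 CPM for WT-MI and 61.4 CPM for WT-Sham. The library labelled KO-MI was thus not below WT-MI for the targeted gene, and every direction given here is that of the libraries as labelled. Where the 3′ reads fall relative to the floxed part of the gene is not given in the sources used here, so the level of Nfe2l1 does not settle the label. Psmd1, a proteasome gene known as a target of Nrf1, was lower in both libraries labelled KO, with 74.4 CPM for KO-MI beside 113 CPM for WT-MI, and 68.7 CPM (62.8 to 74.98) for KO-Sham beside 80.7 CPM (72.3 to 89.8) for WT-Sham, where the intervals overlap.

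The library labelled KO-Sham stood apart from the others before any gene was compared. Its CM1 nuclei had a median of 2632 UMIs, against 4043.5 in KO-MI, 4042 in WT-MI and 3749 in WT-Sham, and a median of 8.78% of UMIs from the mitochondrial genome, against 5.05%, 5.15% and 6.13%. Summed CM1 UMIs ran from 4151418 in WT-Sham to 7335268 in KO-Sham. Genes of short genomic span were lower in the knockout pair as a class, with a median log2 ratio of −0.33 over 454 genes under 3 kb and 0.12 over 1737 genes over 100 kb. The same bins of the wild-type pair had medians of −0.15 and −0.07. The pools also differed in sex make-up, since Xist, transcribed from the inactive X chromosome, had 1585 CPM in KO-MI and 775 CPM in KO-Sham. Barcodes shared with another library numbered 2 among the KO-MI and 3 among the KO-Sham CM1 nuclei.

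Over all genes, 11150 had 50 or more UMIs over both knockout sums and are called measured. Of these, 330 were past the fold, meaning 2-fold or more, on the higher side (2.96%) and 349 on the lower side (3.13%). The median gene had a log2 ratio of 0.04, and the middle 90% of genes lay between −0.85 and 0.81. The same rule in the wild-type pair gave 333 higher (3.15%) and 344 lower (3.25%) of 10574 measured genes. The count for each gene list is read against these shares. List members named in the text beyond the 3 with the most UMIs of a list were chosen after their values were seen, injury, early response and cytokine genes excepted.

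The injury genes are shown first by sequence, since 7 of them hold the same hexamer near the RefSeq start. TEAD factors bind the hexamer CATTCC, known in muscle genes as the M-CAT element. The hexamer, searched on both strands as CATTCC or GGAATG, lay within 250 bases before to 50 bases after the RefSeq start (GRCm38.p6) in 7 of the 11 measured injury genes with such a window (63.6%). It lay in 14.3% of the 8707 measured genes with a window and in 14.7% of all 32851 windows. Csrp3, Nppa, Uchl1 and Xirp2 were the injury genes with a window and no match, and Clu had no window. A match describes the letters and not a bound site. Below, 5′ to 3′ with the hexamer in capitals, stand the 150 bases before the RefSeq start for 4 of these genes. For Ankrd1 and Nppb, where GENCODE places an exon in the longer stretch, 30 bases around the hexamer are given. That exon covers all 150 bases for Ankrd1 and 112 of the 150 for Nppb. By GENCODE, the hexamers of Ankrd1 and Nppb thus lie inside an exon and not before the start of the gene.
Acta1 (chr8:123894776-123894925, minus strand): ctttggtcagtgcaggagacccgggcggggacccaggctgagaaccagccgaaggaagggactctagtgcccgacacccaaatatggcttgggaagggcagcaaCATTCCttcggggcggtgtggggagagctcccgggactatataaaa
Ankrd23 (chr1:36535740-36535889, minus strand): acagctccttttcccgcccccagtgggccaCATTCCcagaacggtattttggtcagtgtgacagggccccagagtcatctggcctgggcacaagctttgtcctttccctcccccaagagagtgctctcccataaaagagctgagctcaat
Mybpc2 (chr7:44524670-44524819, minus strand): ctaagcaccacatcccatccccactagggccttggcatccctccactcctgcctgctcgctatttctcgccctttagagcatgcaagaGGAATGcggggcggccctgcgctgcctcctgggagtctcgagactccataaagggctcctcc
Flnc (chr6:29433106-29433255, plus strand): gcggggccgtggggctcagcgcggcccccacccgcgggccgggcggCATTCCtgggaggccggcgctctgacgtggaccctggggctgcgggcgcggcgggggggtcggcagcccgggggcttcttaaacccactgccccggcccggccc
Ankrd1 (chr19:36119950-36119979, minus strand): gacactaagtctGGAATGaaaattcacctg
Nppb (chr4:147985783-147985812, plus strand): gctcagccggcaGGAATGcagctgataaat

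In each of these 6 stretches 1 hexamer is marked, in the CATTCC orientation in Acta1, Ankrd23 and Flnc and as GGAATG in Mybpc2, Ankrd1 and Nppb. Among the 225 genes higher past the fold that had a window, 17.8% held the hexamer, and so did 14.4% of the 264 lower ones, shares much nearer that of all measured genes. The AP-1 motif TGANTCA was present in 7.6% of the higher, 6.8% of the lower and 5.8% of all measured genes with a window. For the antioxidant response element TGACNNNGC, which CNC factors such as Nrf1 bind with a small Maf partner, the shares were 16.9%, 16.3% and 17.2%, and it was 18.4% of 38 proteasome genes. The estrogen-related receptor motif AAGGTCA lay in 11.9% of the 67 genes of respiratory complexes I to V with a window, beside 3.8% of all measured genes.

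Injury genes were the list with the highest median ratio of the 28 lists of gene function. Of its 14 genes, 12 were measured, 11 of these were above 0 and 8 were higher past the fold, with a median of 1.66 beside 0.04 over all genes. Nppa, the atrial natriuretic peptide (chr4:148000722-148002079), had 2374 CPM in KO-MI and 256 CPM in KO-Sham, a log2 ratio of 3.21 (3.14 to 3.28), beside 1961 and 148 CPM in WT-MI and WT-Sham. Ankrd1, a stretch-responsive protein that binds the titin spring (chr19:36111961-36120099), had 1638 CPM against 198 CPM, a ratio of 3.05 (2.97 to 3.13), beside 1528 and 158 CPM in the wild-type pair. Nppb, the brain natriuretic peptide (chr4:147985788-147987205), had 827 CPM against 105 CPM, a ratio of 2.98 (2.87 to 3.09). All 3 lay far above Sham in both genotypes.

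Contractile members of the injury list were higher as well. The skeletal actin Acta1 had 110 CPM in KO-MI and 20.6 CPM in KO-Sham, a log2 ratio of 2.42 (2.16 to 2.69), the actin-binding Xirp2 66.3 CPM against 18.1 CPM (1.87, 1.58 to 2.17) and the fetal myosin heavy chain Myh7 898 CPM against 314 CPM (1.52, 1.45 to 1.59). Mybpc2, a myosin-binding protein of fast muscle, had a ratio of 1.80 (1.04 to 2.602) on only 74 UMIs over both sums. Clu, a secreted chaperone, was also past the fold at 1.45 (1.22 to 1.69). Below the fold were Ankrd23 at 0.87, Flnc, the actin cross-linker filamin C, at 0.69, and Uchl1 at 0.04. Csrp3, a Z-disc protein and the only member below 0, had 517 CPM in KO-MI and 622 CPM in KO-Sham (−0.27, −0.33 to −0.20). Xirp1 and Ankrd2 were not measured, with 4 and 5 UMIs in all.

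The wild-type pair gave a like picture at most of these genes, with a list median of 1.49 and 8 of 12 past the fold. Nppb, with 736 CPM for WT-MI and 40.2 CPM for WT-Sham, had a higher ratio there (4.19), and Myh7, with 635 CPM and 390 CPM, a lower one (0.70). For Nppb the Sham libraries lay further apart, as a ratio, than the MI libraries. Over the list, the sum was 6682 CPM in KO-MI, 5727 CPM in WT-MI, 1663 CPM in KO-Sham and 1230 CPM in WT-Sham.

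The injury UMIs of KO-MI were spread over the CM1 nuclei and not held by a few. No correction for RNA carried over between nuclei was made, and its part in this spread was not tested. After each nucleus was thinned to 1000 UMIs, KO-MI nuclei held a mean of 7.00 UMIs of the injury list and KO-Sham nuclei 1.67. In KO-MI, 71.2% of nuclei (68.6 to 73.6) exceeded 4 UMIs, the 95th percentile of KO-Sham, against 3.70% of KO-Sham itself. Before thinning 96.5% exceeded the unthinned KO-Sham percentile of 10 UMIs. That share is not at equal depth, the median being 4043.5 UMIs per nucleus in KO-MI and 2632 in KO-Sham. Without Nppa and Nppb the share over the same percentile was 31.8% of KO-MI nuclei. In the wild-type pair 61.9% of WT-MI nuclei exceeded the 95th percentile of WT-Sham. Of all Nppa UMIs in KO-MI, the 10 richest nuclei held 4.44%.

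**Figure D1:**
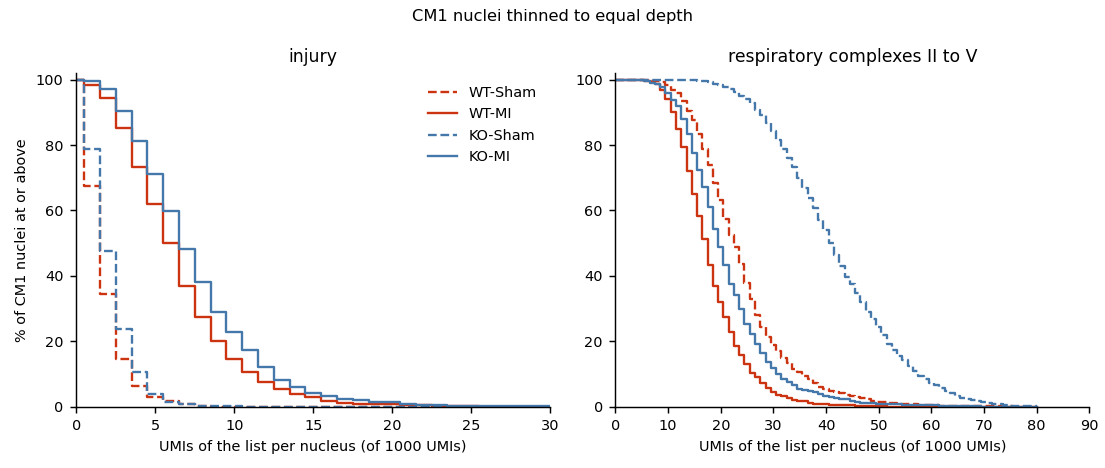
Share of CM1 nuclei (y axis, %) that held at least a given number of UMIs of a list (x axis) after each nucleus was thinned to 1000 UMIs, for the injury list (left) and respiratory complexes II to V (right); lines are the 4 libraries, dashed for Sham and solid for MI. The injury curves split by surgery, while in the respiratory panel KO-Sham (mean 41.4 UMIs) lies apart from the other 3 libraries (means 17.6 to 23.4).

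Matricellular and cytoskeletal genes held several of the highest ratios of the whole comparison. All 25 list genes were measured, 23 were above 0 and 10 were higher past the fold, with a median of 0.70. Spp1, the secreted phosphoprotein osteopontin (chr5:104435118-104441050), had 202 CPM in KO-MI (1076 UMIs) and 7.498 CPM in KO-Sham (55 UMIs), a log2 ratio of 4.75 (4.36 to 5.17). Ccn2, a connective tissue growth factor, had 149 CPM against 11.7 CPM (3.67, 3.35 to 4.01), and Timp1, an inhibitor of matrix proteases, 70.6 CPM against 7.91 CPM (3.16, 2.76 to 3.58). Lgals3, Thbs1, Tnc, Tagln and Ccn1 had ratios between 2.09 and 2.70. The abundant cytoskeletal genes differed less, with Actb at 0.31, Actg1 at 0.51 and Vim at −0.17.

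Arg1, the urea cycle enzyme arginase 1, had the highest ratio of any gene with 100 or more UMIs, 6.11 (4.22 to 9.17), from 100 UMIs in KO-MI and 2 in KO-Sham. Csta2 and Cstdc4, genes of the stefin family of protease inhibitors that lie among near-identical copies and are therefore uncertain, had ratios of 4.08 and 3.20. The chemokine Ccl2 had 56.9 CPM against 5.04 CPM (3.50, 3.001 to 4.03). The smooth muscle calponin Cnn1 had 101 UMIs against 11 (3.66), the kinase gene Blk 20.7 CPM against 2.59 CPM (2.996) and the growth factor Pdgfc 28.0 CPM against 3.82 CPM (2.87). Several of these are genes that inflammatory or stromal cells also express. The myeloid marker list summed to 287 CPM (273 to 302) in KO-MI and 99.3 CPM in KO-Sham, with all 7 measured markers above 0 and none of the 14 at 0 UMIs in either library. Among the 448 KO-MI and 2013 KO-Sham nuclei without a UMI of that list the ratios were 4.92 for Spp1, 6.91 for Arg1, 3.48 for Ccl2 and 3.02 for Timp1. The Arg1 ratio there rested on no more than the 2 KO-Sham UMIs given above.

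Meg3, a maternally expressed long RNA of the imprinted Dlk1-Dio3 locus, had 400 CPM in KO-MI and 40.2 CPM in KO-Sham, a ratio of 3.31 (3.14 to 3.50). The other long RNAs of that locus, Rian (2.41) and Mirg (2.66), were past the fold too, while Dlk1, which is expressed from the other parental copy, stood at −0.49. Meg3 overlaps 5 annotated genes, so its reads may be shared. It was high in few nuclei compared with Nppa, the 10 richest holding 16.6% of its UMIs in KO-MI and 23.7% in KO-Sham. In the wild-type pair Meg3 had a ratio of 2.79.

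**Figure D2:**
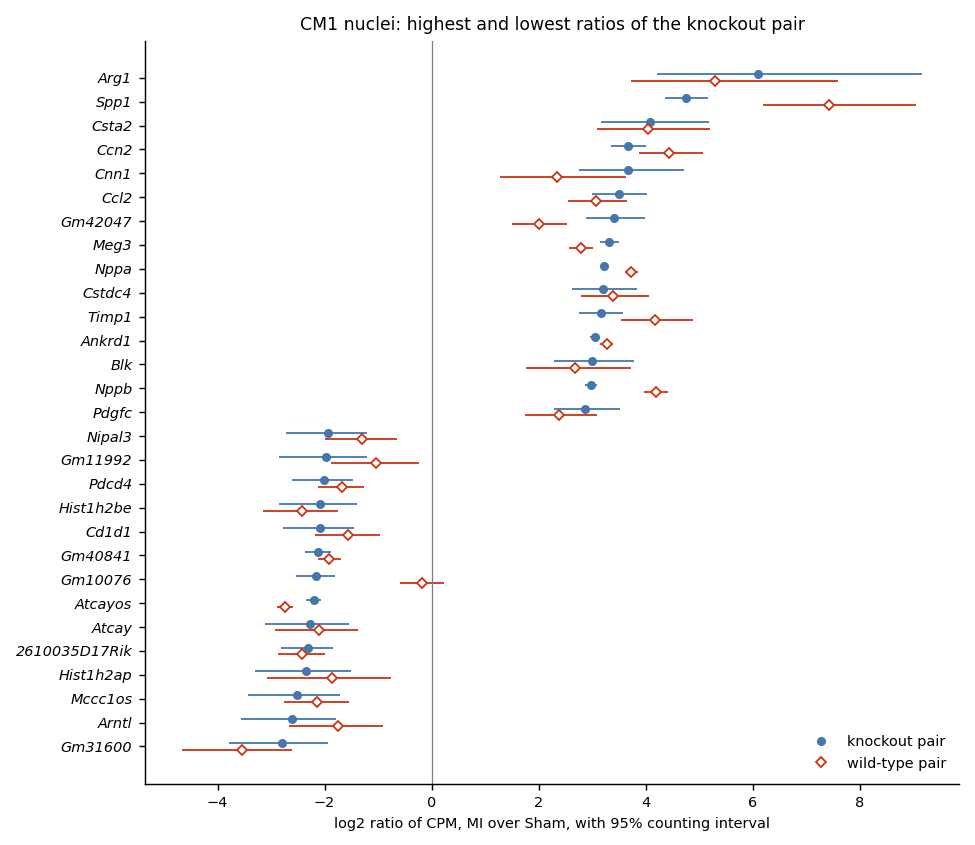
Log2 ratio of CPM, MI over Sham (x axis), with its 95% counting interval for the genes named from the 15 highest and 15 lowest ratios of the knockout pair among genes with 100 or more UMIs; filled circles are the knockout pair and open diamonds the wild-type pair. The knockout ratios run from 6.11 (Arg1) to −2.80 (Gm31600), and Gm10076 is the 1 gene shown whose wild-type interval holds 0.

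Early response transcription factors were moderately higher. Of 22 list genes, 14 were measured, 12 of them above 0 and 7 higher past the fold, with a median of 0.999. Ier3, an early response gene, had a ratio of 1.299 (325 and 182 UMIs), Cebpd 1.24, Nr4a1 1.07 and Cebpb 1.01. Atf3, a stress-induced partner of AP-1, had 5.82 CPM against 2.59 CPM (1.17, 0.30 to 2.07), and Fosl2 stood at 0.99. Jun (0.01) and Jund (−0.14), the most abundant AP-1 subunits, were close to 0, and Fos was not measured, with 9 and 7 UMIs. The myeloid markers move with this list too, whose median was 0.50 among the nuclei without a UMI of them, and 0.66 over all nuclei thinned to 1000 UMIs. The list median was 0.62 in the wild-type pair, where Klf4 was lower past the fold (−1.03) and stood at −0.07 in the knockout pair, a difference of 0.96 that turned to −0.16 among the nuclei without a myeloid UMI.

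Cytokine receptors and signalling genes, a list of gp130 and JAK-STAT genes with TNF and interleukin 1 receptors and NF-κB genes, were little different. Of 20 genes, 17 were measured, 12 were above 0 and 1 was past the fold, with a median of 0.25. That gene was Tnfrsf12a, the receptor of the cytokine TWEAK, with 108 CPM in KO-MI and 36.0 CPM in KO-Sham (1.59, 1.37 to 1.80). The oncostatin M receptor Osmr stood at 0.93, its co-receptor Il6st at 0.41, Stat3 at 0.25, and Jak1 and Jak2 at −0.17 and −0.13.

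Stress pathways of the endoplasmic reticulum had a median of 0.33, with 18 of 26 measured genes above 0 and 3 higher past the fold. Gdf15, a secreted stress cytokine, had 63 UMIs against 11 (2.98, 2.04 to 4.05). The serine synthesis genes Psat1 (1.60) and Phgdh (1.21) were the others, whereas the chaperone Hspa5 stood at 0.41 and Ddit3 at −0.10. Heat shock chaperones had a median of 0.01, with 2 of 23 past the fold, and their most abundant gene, the small heat shock protein Cryab, stood at 0.22. In the wild-type pair the chaperone median was 0.26 and Cryab stood at 0.82.

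Respiratory chain genes were lower after MI without exception. All 36 nuclear subunits of complex I were below 0, with a median of −0.995 and 17 past the fold, and so were all 45 genes of complexes II to V, with a median of −0.96 and 20 past the fold. Complex I takes electrons from NADH, complexes II to IV pass them on to oxygen, and complex V makes ATP. Cox4i1, a subunit of cytochrome c oxidase (chr8:120668222-120674207), had 1157 CPM in KO-MI and 2810 CPM in KO-Sham, a log2 ratio of −1.28 (−1.32 to −1.24). Ndufb9 of complex I had 440 CPM against 1016 CPM (−1.21), and Cox6c 945 CPM against 1911 CPM (−1.02). The extremes, chosen after their values were seen, were Cox8b (−1.67) and Ndufa13 (−1.48) at the low end and Ndufs1 (−0.15) and Sdhc (−0.38) nearest 0.

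**Figure D3:**
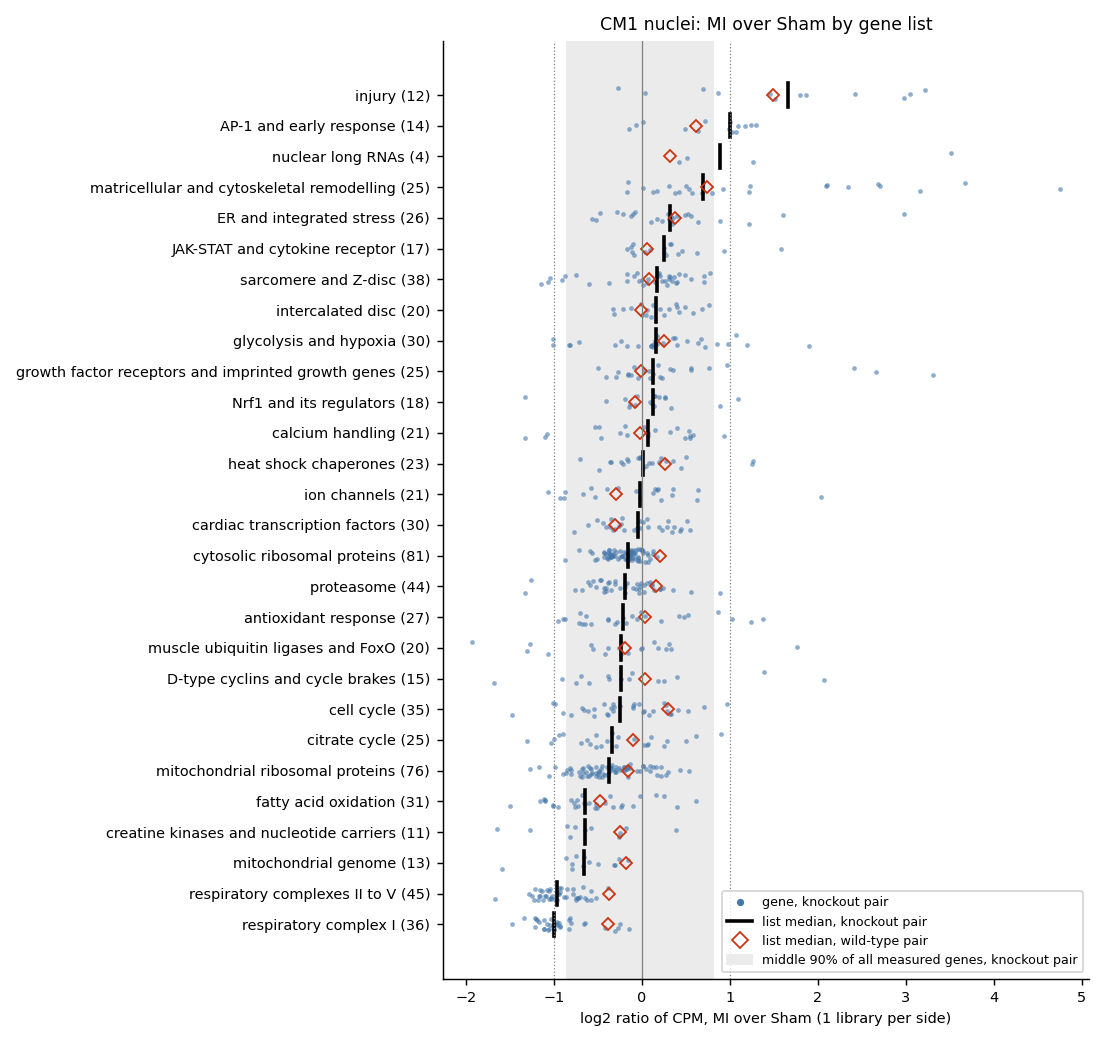
Log2 ratio of CPM, MI over Sham (x axis), of every measured member of 28 gene lists (number of measured members in parentheses); points are genes and bars list medians of the knockout pair, open diamonds are list medians of the wild-type pair, and the grey band holds the middle 90% of all measured genes. The injury median (1.66) and those of respiratory complex I (−0.995) and complexes II to V (−0.96) lie outside the band, as do those of early response factors (0.999) and the nuclear long RNAs (0.89).

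The respiratory ratios stood beside a high level in KO-Sham. Complexes II to V summed to 39523 CPM in KO-Sham and 19764 CPM in KO-MI, against 22247 CPM in WT-Sham and 16838 CPM in WT-MI. The KO-MI level therefore lay between both wild-type libraries, and KO-Sham alone lay far above all 3. Complex I had the same order, with 13759 CPM in KO-Sham, 7897 CPM in WT-Sham, 7140 CPM in KO-MI, then 6159 CPM for WT-MI. The lower depth and higher mitochondrial share of KO-Sham nuclei move with this result, and their part in it was not tested beyond the values that follow. Among nuclei of 2000 to 4000 UMIs in both libraries the medians were −0.77 for complex I and −0.72 for complexes II to V. Short genes move with it as well, 55 of the 79 respiratory genes with a position spanning under 10 kb, and in the 40 of them between 3 and 10 kb the median was −1.03 beside −0.17 over all 1869 measured genes of that span.

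The 13 protein-coding genes of the mitochondrial genome were all below 0, with a median of −0.65 and a sum of 53523 CPM in KO-MI and 87163 CPM in KO-Sham. The most abundant, mt-Co3, had 13919 CPM against 22106 CPM (−0.67), and mt-Nd6, on the other strand of that genome, had the lowest ratio (−1.59, on 330 UMIs). These are transcripts made in mitochondria, so in a preparation of nuclei they measure carried-over RNA. The order of their sums over the libraries was that of the nuclear subunits except that WT-MI (55578 CPM) lay above KO-MI, with WT-Sham at 63237 CPM.

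Per nucleus, the respiratory difference was seen across most of the class. After thinning, KO-MI nuclei held a mean of 20.7 UMIs of complexes II to V in 1000 and KO-Sham nuclei 41.4. Of KO-MI nuclei, 96.8% lay below the KO-Sham median of 40 UMIs, and in the wild-type pair 77.2% of WT-MI nuclei lay below the WT-Sham median of 22 UMIs. The KO-MI mean was thus nearer that of WT-Sham nuclei (23.4) than that of its own Sham library.

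**Figure D4:**
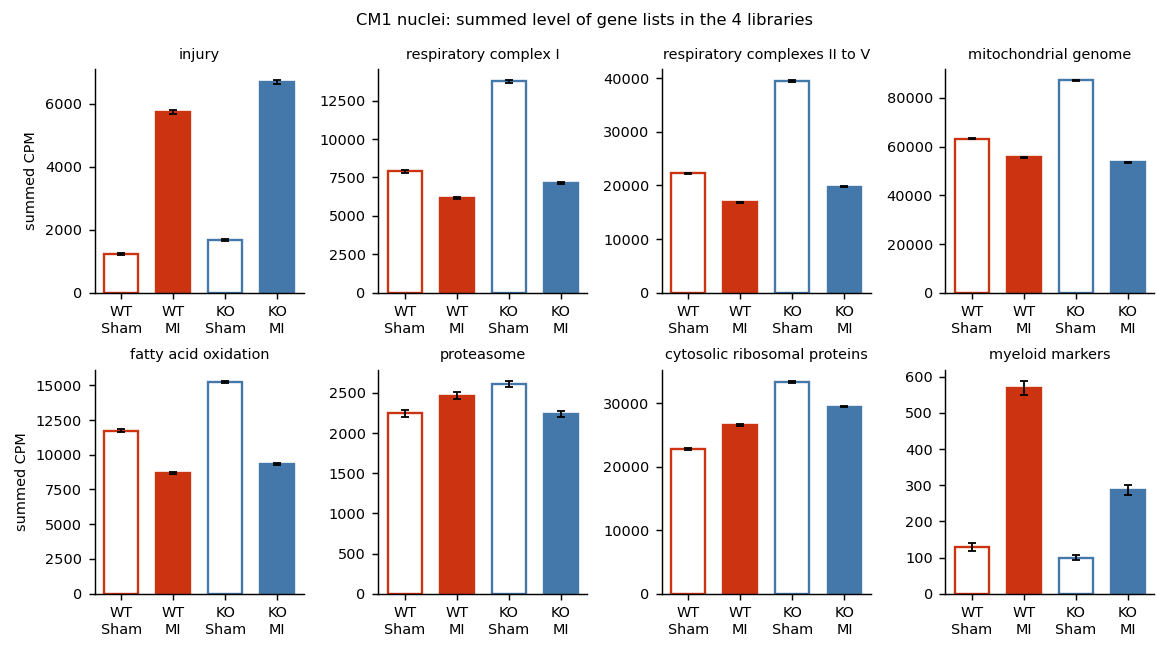
Summed CPM (y axis, starting at 0) of 8 gene lists in the CM1 nuclei of the 4 libraries, with exact 95% Poisson intervals; open bars are Sham and filled bars MI, red for wild type and blue for knockout. Injury and myeloid sums separate MI from Sham, while the mitochondrial lists separate KO-Sham (39523 CPM for complexes II to V) from the other libraries.

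Fuel use genes were lower as well. For uptake and oxidation of fatty acids 27 of 31 genes were below 0 and 7 were lower past the fold, with a median of −0.64. Fabp3, the fatty acid carrier of heart muscle, had 1871 CPM in KO-MI and 5266 CPM in KO-Sham (−1.49, −1.52 to −1.46). The mitochondrial thiolase Acaa2 stood at −1.16, and Acadvl, the first dehydrogenase for long chains, at −1.10. The regulators Ppargc1b (0.62), Ppard (0.40), Esrrg (0.26) and Esrra (0.16) were the 4 genes above 0. The list median in the wild-type pair (−0.48) was closer to that of the knockout pair than for the respiratory lists. However, no fatty acid gene was past the fold in the wild-type pair, where the lowest ratio was −0.99. The libraries also ranked as for complexes II to V. The fatty acid sum was highest for KO-Sham (15224 CPM), followed by WT-Sham (11734), then KO-MI (9346), with WT-MI lowest (8678).

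Citrate cycle genes had a median of −0.33, with 16 of 25 below 0 and 2 lower past the fold, from Bckdha of branched-chain breakdown, at 71 and 241 UMIs, to Oxct1, which uses ketone bodies, at 0.90. Among creatine kinases and carriers of adenine nucleotides 10 of 11 genes were below 0, with a median of −0.65. Myoglobin (Mb), the oxygen store of muscle, had 386 CPM in KO-MI and 1204 CPM in KO-Sham (−1.64), the muscle creatine kinase Ckm 490 CPM against 1181 CPM (−1.27) and the nucleotide carrier Slc25a4 1954 CPM against 3519 CPM (−0.85). Ckmt2, the mitochondrial creatine kinase, was the member above 0 (0.39, and 0.91 in the wild-type pair).

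Glycolysis and hypoxia genes were split. Of 30 measured genes 21 were above 0, 3 were higher and 2 lower past the fold, with a median of 0.16. Higher were the lactate exporter Slc16a3 (1.90), the glucose transporter Slc2a1 (1.20) and the hexokinase Hk2 (1.08). Lower were the muscle isoforms Eno3 and Pgam2 (both −1.01), and Gapdh stood at −0.82. The summed list was slightly lower (4064 CPM against 4386 CPM) while its median was above 0.

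Proteasome genes, known targets of Nrf1, lay slightly below 0. Of 44 measured genes 31 were below 0 and 2 were lower past the fold, with a median of −0.19. The 2 were Psme1 of the PA28 activator, with 36.3 CPM in KO-MI and 86.4 CPM in KO-Sham (−1.25, −1.49 to −1.02), and the assembly chaperone Psmd10 (−1.32) on 80 UMIs. Of the core particle, Psmb5 stood at −0.62, Psma7 at −0.52, Psmb2 at −0.30 and Psma3 at 0.06 (−0.08 to 0.21). Psmd1 of the regulatory particle stood at 0.11 (−0.08 to 0.31), and Psme4 at 0.02. In the wild-type pair the median was 0.16, with 30 of 42 genes above 0, and Psmd1 stood at 0.48 (0.29 to 0.68). The summed list was 2235 CPM in KO-MI, 2611 CPM in KO-Sham, 2464 CPM in WT-MI and 2244 CPM in WT-Sham, so KO-Sham was again the highest library. Short genes move with this list too. In the knockout pair the median was −0.37 over its 15 genes of 3 to 10 kb. It was −0.05 over the 17 of 10 to 30 kb and −0.17 over the 8 of 30 to 100 kb. Over all measured genes of these spans, in the same order, the medians were −0.17, 0.02 and 0.11.

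Antioxidant genes had a median of −0.21, with 18 of 27 measured genes below 0 and 3 higher past the fold. Hmox1, the inducible heme oxygenase, had 9.96 CPM against 3.82 CPM (1.38, 0.70 to 2.10), Gclc, the rate-limiting enzyme of glutathione synthesis, 25.6 CPM against 10.8 CPM (1.25), and the metallothionein Mt2 stood at 1.03. Enzymes that clear superoxide and peroxides were below 0, among them Prdx2 (−0.90), Gpx4 (−0.71), Sod2 (−0.67) and Cat (−0.65). Nfe2l2, which encodes the related factor Nrf2, had 69.0 CPM against 57.4 CPM (0.26, 0.06 to 0.47). The list median was 0.03 in the wild-type pair and 0.01 in the knockout pair over all cardiomyocyte nuclei.

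Nrf1 and its regulators had a median of 0.12 over 18 measured genes, with 1 higher and 1 lower past the fold. Nfe2l1 itself had a ratio of 0.11 (−0.11 to 0.33) in the knockout pair and −0.48 (−0.73 to −0.22) in the wild-type pair, but the sign of the difference, 0.59 over all CM1 nuclei, turned to −0.14 among nuclei of 2000 to 4000 UMIs. The protease Ddi2, which cuts Nrf1 free, stood at 0.13, the deglycosylating enzyme Ngly1 at −0.06, and the segregase Vcp at −0.19. The small Maf partners Mafk (1.10, 51 UMIs) and Mafg (0.89) were the highest.

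Ribosomal protein genes were slightly lower. For the cytosolic ribosome 70 of 81 genes were below 0, none was past the fold and the median was −0.16. Among nuclei of 2000 to 4000 UMIs that median was 0.06, while its sign did not turn when every nucleus was thinned to 1000 UMIs. The sign thus differed with the nuclei taken. For the mitochondrial ribosome 62 of 76 genes were below 0, with 3 past the fold and a median of −0.37.

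Contractile and electrical genes showed no common direction. In the sarcomere and Z-disc list 25 of 38 measured genes were above 0 and 3 were lower past the fold, with a median of 0.18. The lower ones were Neb (−1.14), the ventricular light chain Myl3, with 2537 CPM in KO-MI and 5317 CPM in KO-Sham (−1.07), and troponin I, Tnni3 (−1.04). Intercalated disc genes ranged from −0.32 to 0.76 with none past the fold. Calcium handling genes had a median of 0.07 with 3 of 21 lower past the fold. Phospholamban (Pln), the brake on the calcium pump, had 878 CPM against 2202 CPM (−1.33, −1.37 to −1.28), while the sodium-calcium exchanger Slc8a1 had 19123 CPM against 10005 CPM (0.93, 0.92 to 0.95). Ion channels had a median of −0.03 over 21 measured genes. In that list 1 gene was higher past the fold (2.03) and 1 lower, the potassium channel subunit Kcne1 (−1.06).

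Muscle ubiquitin ligases and FoxO genes had a median of −0.24, with 4 of 20 lower and 1 higher past the fold. Asb15 (−1.93), the atrophy ligase Fbxo32 (−1.07) and the autophagy genes Map1lc3a (−1.27) and Map1lc3b (−1.31) were lower, and Trim54 was higher (1.77). Cardiac transcription factors had none of 30 past the fold and a median of −0.04, from Thra, a thyroid hormone receptor, at −0.77 to Hand2 at 0.55. Cell cycle genes had a median of −0.24, with 2 of 35 past the fold, both lower: Ccnb1 (−1.48, 87 UMIs) and Racgap1 (−1.01). Mki67, a marker of cycling cells, stood at 0.02. Of the cycle brakes, Gadd45g had 47.2 CPM against 11.2 CPM (2.08) and Cdkn1a 18.6 CPM against 7.09 CPM (1.39), whereas Ccng2 was lower (−1.68), in a list with a median of −0.24 over 15 genes. Growth factor receptors and imprinted genes had a median of 0.12, and the receptor Erbb4 stood at −0.16. Nuclear long RNAs were all above 0, with a median of 0.89 over 4 measured genes: Malat1 had 122074 CPM in KO-MI and 90874 CPM in KO-Sham (0.43), and Neat1 288 CPM against 120 CPM (1.26).

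The lowest ratios among genes with 100 or more UMIs were held by several long RNAs and by genes of low count. Gm31600, a long noncoding RNA, had 2.25 CPM in KO-MI and 15.7 CPM in KO-Sham (−2.80, −3.79 to −1.94). Arntl, which encodes the clock factor Bmal1, had 13 UMIs against 110 (−2.62, −3.57 to −1.78). Atcay (−2.28) and its antisense partner Atcayos (−2.21), like Mccc1os (−2.52), overlap other genes, and without knowledge of strand in the counting their reads cannot be told apart. The histone genes Hist1h2ap (−2.34) and Hist1h2be (−2.09) have near-identical copies and are uncertain. Also among the 15 lowest were the long RNAs 2610035D17Rik (−2.32) and Gm40841 (−2.12), the lipid antigen presenter Cd1d1 (−2.09), the translation inhibitor Pdcd4 (−2.02), Gm11992 (−1.98) and the membrane transporter gene Nipal3 (−1.93).

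Markers of other cell types were also counted in CM1. Of the 1308 KO-MI and 2619 KO-Sham nuclei, only 1 and 15 had no UMI of the myeloid, fibroblast, endothelial or mural markers. Fibroblast markers summed to 927 CPM in KO-MI and 951 CPM in KO-Sham, with 3 of 8 above 0. Endothelial markers summed to 551 CPM against 841 CPM, with 2 of 9 above 0, and mural markers to 281 CPM against 361 CPM. Red blood cell markers summed to 2028 CPM against 1892 CPM, with 4 of 5 measured genes above 0. Atrial markers summed to 2498 CPM against 414 CPM, of which Nppa made 2374 CPM and 256 CPM, with 4 of 5 measured genes above 0. Myl7 stood at 0.73, while Kcnj3 had 62.4 CPM against 115 CPM (−0.89, −1.07 to −0.70). Myeloid markers were higher in KO-MI, as given above, led by S100a8 (85.7 CPM against 18.1 CPM) and S100a9 (75.3 CPM against 23.9 CPM), and their sum in WT-MI was 568 CPM and in WT-Sham 128 CPM. Bmp10 was the 1 marker of these 6 lists at 0 UMIs in KO-MI.

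Set beside the wild-type pair, which shares no library with it, the knockout pair had much of the same response. Over the 10508 genes measured in both, 197 were higher past the fold in both pairs, 65.9% of the 299 in the knockout and 65.02% of the 303 in the wild type. Lower past the fold in both were 132, 45.8% of 288 and 39.2% of 337. No gene was past the fold in opposite directions, and the ratios correlated across genes with r = 0.75, a description since genes are not replicates. The difference of the 2 ratios, knockout minus wild type, had a median of 0.12 over these genes, which TMM scaling moved to 0.0075, so list differences are given relative to the median gene. A difference of 1 or more was found for 127 genes and of −1 or less for 80. With TMM scaling these counts were 78 and 135, so which side held more genes depended on the scaling.

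Relative to the median gene, the respiratory lists differed most between the pairs. The median difference was −0.73 for complex I and −0.68 for complexes II to V, where 35 of 36 and 45 of 45 genes had a lower ratio in the knockout pair, and −0.65 for the mitochondrial genome. It was −0.53 for cytosolic ribosomal proteins and for creatine kinases and nucleotide carriers, −0.49 for the proteasome, −0.41 for the cell cycle list, −0.40 for heat shock chaperones, −0.36 for antioxidant genes, −0.36 for injury genes and −0.20 for both fatty acid and matricellular genes. Positive differences were small, the largest being 0.12 for cardiac transcription factors. The Sham libraries lay further apart than the MI libraries for complexes II to V, where KO-Sham held 39523 CPM and WT-Sham 22247 CPM. No difference between the pairs was tested, as each rests on 1 library in each of 4 groups.

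Among genes with 100 or more UMIs in each pair and an interval of the difference that excludes 0, the lowest differences were those of Spp1 (−2.68, −4.35 to −1.38), at 207 CPM in WT-MI and 1.20 CPM in WT-Sham (5 UMIs), and Gm10076 (−1.98, −2.55 to −1.44). Gm10076, a short noncoding RNA (chr14:105681828-105682211), had 13.7 CPM in KO-MI, 61.5 CPM in KO-Sham, 19.1 CPM in WT-MI and 21.7 CPM in WT-Sham. Xist (−1.62), the adaptor subunit Ap1s3 (−1.49) and the ribosome biogenesis genes Mrto4 (−1.47) and Nhp2 (−1.37) followed. The highest differences were those of Gm42047 (1.41, 0.66 to 2.17), Klhl38 (1.39), Gm26724 (1.35), Pigs (1.31), the synaptic gene Pclo (ratios of 0.72 in the knockout and −0.58 in the wild-type pair) and the stromal factor Tcf21 (1.25, from −0.24 and −1.49). Klhl38 was lower after MI in both pairs, with 33 and 145 UMIs in the knockout pair and CPM of 4.48 in WT-MI and 37.6 in WT-Sham.

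**Figure D5:**
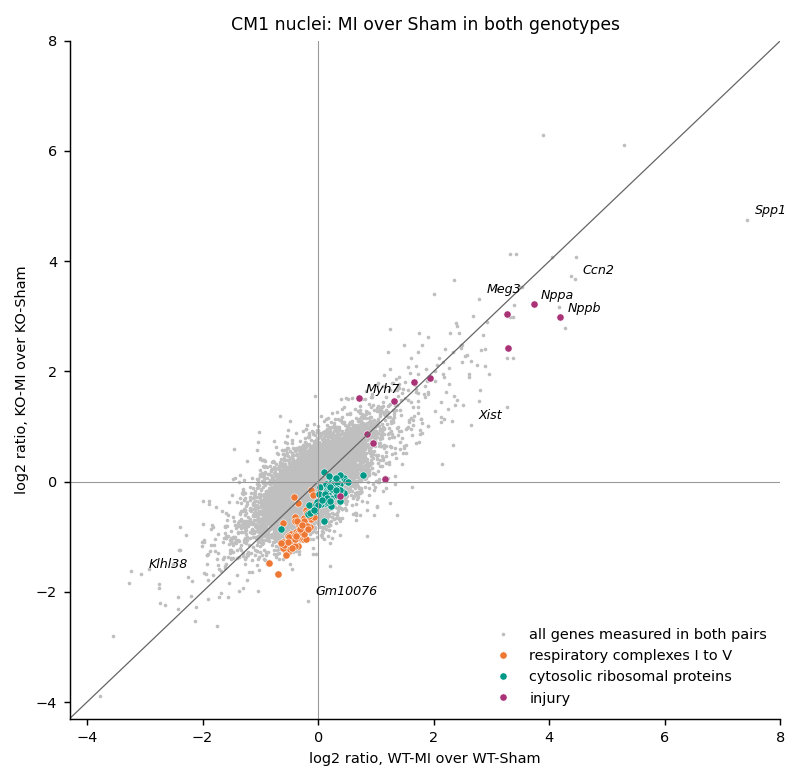
Log2 ratio of CPM, MI over Sham, of each of the genes measured in both pairs: wild-type pair on the x axis and knockout pair on the y axis, with the line of equal ratios. All respiratory genes (orange) but 1 lie below the line, with medians of −0.995 and −0.96 on the y axis, and Spp1 (4.75 against 7.43) and Gm10076 (−2.16 against −0.18) lie farthest below it among the labelled genes.

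Other cardiomyocyte classes of the same libraries, whose hearts and libraries they share, showed Nppa, Spp1 and Cox4i1 in the same direction. Nppa had ratios of 3.20 in CM2, 4.25 in CM4 and 3.09 in CM5, beside 3.21 in CM1. Spp1 had 4.07, 5.61 and 5.44 in these classes, beside 4.75, on 3 or 4 UMIs of KO-Sham in each. Cox4i1 had −1.15 in CM2, −0.51 in CM4 and −1.38 in CM5, beside −1.28. Respiratory ratios of CM4 were nearer 0 than those of CM1 for all 6 named subunits of complexes I and IV, with −0.07 (−0.24 to 0.10) for Ndufb8, −0.27 for Ndufb10 and Cox6c and −0.29 for Ndufb9 and Cox5a, beside CM1 ratios from −1.28 to −1.02. With CM1 and CM5 nuclei summed together, the injury median was 1.86, and with all cardiomyocyte nuclei 1.89.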

How the data were processed

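Single-nucleus RNA-seq was done on 4 libraries of neonatal mouse hearts, 1 per group. The deposited UMI counts per gene and nucleus were made by the authors with Cell Ranger on the mm10/GRCm38 pre-mRNA reference. The authors kept nuclei of 200 to 2500 detected genes and transferred population labels from an earlier data set with Seurat 3. The authors also deposited, for each nucleus, its mitochondrial percent and the score of the label transfer as a fraction, and 9 further columns were not used. The labels name version 2 of the 3′ kit, the methods another version.

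For each library the counts were summed over its CM1 nuclei and scaled to CPM (Python 3.11.15, numpy 2.4.6, scipy 1.17.1). Levels carry exact Poisson intervals, ratios exact conditional binomial intervals, shares Clopper-Pearson intervals and differences of ratios an interval combined from both, each at 95% and for counting error only. With 1 library on each side there was no test. Measured genes had 50 or more UMIs over both sums, and past the fold means a log2 ratio at or beyond 1 or −1. Of the ratios of genes with 100 or more UMIs, the 15 highest and 15 lowest were named, with the 6 highest and 6 lowest differences from the wild-type pair, the 3 most abundant members of each list and all measured injury, early response and cytokine genes. A few genes that this rule takes are not reported here. The members and lists were chosen with earlier results of these data known. Positions are GENCODE M21, which matched 22090 of 22574 genes. TMM factors came from edgeR 4.0.16 in R 4.3.3, and the ratios and intervals were tested on simulated data. Doublets were not called here; no droplet filter beyond that of the authors was applied. Alternatives were other scalings, thinned or depth-matched nuclei, other sets of nuclei and other UMI minimums. Depth-matched means nuclei of 2000 to 4000 UMIs, a range within which the mean depth still differed between the libraries.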

Additional observations from a re-analysis of the deposited data

Results flagged for a closer look

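For 6 lists the summed level was higher after MI in one genotype and lower in the other, and none of these differences was tested. In the knockout pair the log2 ratio of the summed list was −0.11 for glycolysis and hypoxia (0.13 in the wild-type pair), −0.225 for the proteasome (0.13), −0.179 for cytosolic ribosomal proteins (0.22) and −0.0264 for sarcomere and Z-disc genes (0.06). It was 0.126 for intercalated disc genes (−0.08 in the wild-type pair) and 0.136 for growth factor receptors and imprinted genes (−0.16). Beside these values, KO-Sham nuclei were the shallowest and had the largest mitochondrial share, and their part in the opposite signs was not tested. Depth-matched nuclei gave cytosolic ribosomal proteins a list median of 0.063 in the knockout pair, while thinned nuclei did not turn its sign.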

How the results depend on the processing

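No paired analysis was possible because each group was 1 library, and for the same reason none could be left out. Leaving out nuclei with a UMI of the myeloid, fibroblast, endothelial or mural markers was not run, since 1 KO-MI and 15 KO-Sham nuclei remained; nuclei without a UMI of the myeloid list alone were taken instead, chosen after seeing the data, as was the removal of shared barcodes, which moved none of 432 values out of its interval (for counts, by over 1.5 times). For values that shifted the cause was not tested, other than fewer or more genes counted at another UMI minimum. Of genes higher after MI past the fold (330), 543 were counted with CM1 and CM5 together, 530 with all cardiomyocyte nuclei, 573 at 20 or more UMIs and 144 at 200 or more; of those lower (349), 565 and 172 at these minimums. Differences between the pairs of 1 or more (127) numbered 78 with TMM scaling, 83 with median-of-ratios factors, 239 without nuclei holding myeloid UMIs, 405 at 20 and 13 at 200 or more UMIs, and those of −1 or less (80) numbered 135 and 130 with these scalings and 286 and 14 at these minimums. Depth-matched nuclei gave −0.7694 for complex I and −0.7174 for complexes II to V in the knockout pair. The difference between the pairs for complex I (−0.61) was −0.7216 with TMM, −0.7102 with median-of-ratios factors, −0.648 with a total without the mitochondrial genome, −0.4689 depth-matched, −0.3973 in all cardiomyocyte nuclei and −0.6364 without myeloid UMIs; for complexes II to V (−0.56) it was −0.6773, −0.6659, −0.4538 depth-matched and −0.3412 in all cardiomyocyte nuclei.

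Some signs turned. With TMM the difference between the pairs was −0.0072 for the nuclear long RNAs and Malat1, −0.0062 for Ttn and −0.030 for Slc8a1 (−0.018 with median-of-ratios factors), and thinned nuclei gave −0.018 for Cd36. Depth-matched nuclei gave differences of −0.0018 for the nuclear long RNAs and Malat1, −0.024 for Kcnd2 and −0.14 for Nfe2l1 (0.59 over all nuclei), and knockout ratios of 0.063 for cytosolic ribosomal proteins, 0.13 for Vim, 0.015 for Hspa8, 0.060 for Igf2r and −0.040 for Cdh2. Igf2r was at 0.11 with CM5 added and 0.070 in all cardiomyocyte nuclei, where Hba-a2 was at −0.022. Without myeloid UMIs the differences were −0.16 for Klf4 (0.96 over all nuclei) and 0.022 for Eno3, and Rbm20 had a knockout ratio of 0.0044.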

Other observations

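Genes of the circadian clock, a group chosen after values were seen because Arntl was among the lowest genes, gave these values, with no test. Arntl, the positive arm of the clock, had a log2 ratio of −2.62 in the knockout pair and −1.75 in the wild-type pair, and its partner genes Npas2 and Clock had −0.43 and −0.26 in the knockout pair and −0.49 and −0.19 in the wild-type pair. In CM5 nuclei of the same knockout libraries Arntl had 20 and 10 UMIs, a ratio of −0.14 (−1.31 to 1.11). In CM4 it had 2 and 10 UMIs, a ratio of −1.23 (−4.46 to 0.996). Of the negative arm, Per2 had 230 UMIs in KO-MI and 83 in KO-Sham, a ratio of 1.93 (1.57 to 2.31) beside 1.14 in the wild-type pair, and Per1 stood at 0.91 (0.68 in the wild-type pair), Nr1d1 at 0.84 (0.30), Cry2 at 0.71 (0.08) and Cry1 at 0.67 (0.40), where the wild-type intervals of the last 3 hold 0. Ciart and Per3 were not measured, with 18 and 7 UMIs over the knockout sums. The output gene Dbp had 0.63 in the knockout pair and −0.22 in the wild-type pair, and Tef 0.90 and −0.01. Hlf had 0.36 and −0.37, Nr1d2 0.50 and 0.14, Bhlhe40 0.85 and 0.70, and Bhlhe41 0.86 and 0.72. The repressor Nfil3 stood at −0.52 and −0.15. The hour of collection of each pool is not given in the sources used here.

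Genes of the Y chromosome had knockout ratios of −1.42 (Uty), −1.07 (Kdm5d), −0.86 (Eif2s3y) and −0.75 (Ddx3y), beside 1.03 for Xist, so the mix of sexes differed between the pools and cannot be told apart from surgery for sex-linked genes. Red blood cell markers summed to 3833 CPM in WT-MI and 2546 CPM in WT-Sham, above both knockout libraries.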
